A study of Mus musculus with 6 samples.

Results

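The unfolded protein response genes described here are Atf4, Ddit3, Xbp1, Herpud1, Calr, Canx, Pdia4, Sdf2l1, Manf and Creld2, taken by name as transcription factors of endoplasmic reticulum (ER) stress and their targets. All 10 were present in the count tables among 53640 shared gene symbols, and all 10 were among the 20694 genes tested. RNA was sequenced from bulk lysate of brain tissue labelled PFC, from mice aged 6 months in 3 groups of 2 libraries each. Treated PS19 mice carried the PS19(P301S) genotype and received WDR5-0103, a small molecule that binds WDR5, a subunit of histone H3K4 methyltransferase complexes. PS19 mice carried the same genotype and received vehicle, and control mice had the C57BL/6 x C3H background and also received vehicle. PS19 mice express human tau with the P301S change from a mouse prion promoter, which is active widely in the nervous system. No source used here gives the dose or route of WDR5-0103.

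Proteins that fold badly in the ER engage the sensors IRE1, PERK and ATF6, which BiP, the chief ER chaperone, otherwise holds inactive. IRE1 splices the Xbp1 mRNA, PERK slows translation and so lets ATF4 protein accumulate, and ATF6 is cut to release a transcription factor. ATF4 induces CHOP, the product of Ddit3, while ATF6 and XBP1 induce chaperones and the machinery that sends misfolded proteins to degradation. Markers of PERK signalling have been described in human brains with tau pathology. Counts per gene cover neither the spliced share of Xbp1 nor the amount of ATF4 protein.

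ATF6 acts with the factor NF-Y on the ER stress response element (ERSE), which reads CCAAT, 9 bases of any kind and CCACG, and on ERSE-II, which reads ATTGG, 1 base of any kind and CCACG. RefSeq promoters (GRCm38.p6) matched 9 of the 10 genes, and Manf did not match. In the 250 bases before the start, searched on both strands, Calr, Canx and Creld2 held an ERSE and Herpud1 an ERSE-II. Over 32851 promoter windows of the same length, 0.113% held an ERSE and 0.0304% an ERSE-II. These 4 promoters are shown because they hold the letters of an element through which ATF6 is known to act, with its fixed bases in capitals. They lie at chr8:94386179-94386428 on the plus strand (Herpud1), chr8:84846932-84847181 on the minus strand (Calr), chr11:50325674-50325923 on the minus strand (Canx) and chr15:88819396-88819645 on the plus strand (Creld2), and each reads 5′ to 3′ along its gene.
Herpud1: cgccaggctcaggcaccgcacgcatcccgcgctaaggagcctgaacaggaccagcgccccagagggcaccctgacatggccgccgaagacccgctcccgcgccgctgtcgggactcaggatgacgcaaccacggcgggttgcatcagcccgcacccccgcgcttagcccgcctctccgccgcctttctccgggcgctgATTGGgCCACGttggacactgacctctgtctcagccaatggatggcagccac
Calr: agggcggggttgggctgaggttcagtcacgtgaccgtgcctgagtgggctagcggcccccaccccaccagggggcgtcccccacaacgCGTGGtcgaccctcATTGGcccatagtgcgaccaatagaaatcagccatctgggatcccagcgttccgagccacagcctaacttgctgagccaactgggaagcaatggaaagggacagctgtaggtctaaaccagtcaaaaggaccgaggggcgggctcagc
Canx: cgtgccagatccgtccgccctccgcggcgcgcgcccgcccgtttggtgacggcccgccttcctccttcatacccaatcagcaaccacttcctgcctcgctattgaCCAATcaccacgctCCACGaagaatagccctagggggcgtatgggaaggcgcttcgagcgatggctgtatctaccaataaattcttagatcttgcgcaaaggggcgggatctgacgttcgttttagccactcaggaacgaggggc
Creld2: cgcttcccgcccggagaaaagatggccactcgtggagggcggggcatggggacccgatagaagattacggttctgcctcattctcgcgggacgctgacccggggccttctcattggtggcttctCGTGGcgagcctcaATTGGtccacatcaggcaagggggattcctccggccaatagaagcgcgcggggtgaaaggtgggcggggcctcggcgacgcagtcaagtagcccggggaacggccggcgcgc
The element began 52 bases before the start in Herpud1, 162 in Calr, 145 in Canx and 126 in Creld2. In Calr and Creld2 it lay in the reverse orientation. The XBP1 core TGACGTGG, found in 0.563% of all windows, was in none of the 9. The CCAAT box, which overlaps both elements (ATTGG is its other strand), was in 8 of the 9 and in 33.8% of all windows. A match of letters is a description and does not show binding.

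Total counts ran from 17690811 to 34774643 per library. The 10 tested markers of excitatory cortical neurons were detected in every library, with summed levels between 2690 and 3240 CPM, read counts scaled to library size. Several libraries stood apart or went against their labels. Prnp, whose promoter drives the transgene, had 1890 and 1600 CPM in treated PS19 and 1680 and 1460 CPM in PS19. Among the controls it had 871 CPM in control 2 but 1650 CPM, a transgenic level, in the other one, called the library labelled control 1 below. The median of 4 olfactory bulb markers lay 3.48 log2 units above the mean of all libraries in the library labelled control 1. PS19 2 was high in oligodendrocyte (0.96), striatal (0.94) and glucocorticoid-induced (0.56) genes on the same scale. By Xist and Ddx3y, both treated PS19 libraries and the library labelled control 1 came from males and the other 3 from females. Treatment and sex thus coincide in treated PS19 against PS19 and cannot be told apart. The treated PS19 tables were counted on another symbol list (54134 symbols, against 54429 in the PS19 and control tables), and its part in the values below was not tested. In bulk tissue, fewer cells of a type and less RNA per cell cannot be told apart.

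Per length, the lectin chaperones stood highest. In CPM per kilobase of merged exon, averaged over the 6 libraries, Canx had a level of 151 (lowest library 139, highest 161) and Calr 125 (110 to 140). Atf4 followed at 41.0 (37.5 to 43.4), and below it Xbp1 at 30.8 (24.6 to 40.9), Pdia4 at 29.3 (24.9 to 38.9) and Herpud1 at 21.4 (18 to 25). Manf had 12.2 (10.2 to 15.5), Ddit3 11.1 (10.3 to 12.1), Sdf2l1 10.4 (6.91 to 16.1) and Creld2 8.99 (6.46 to 13.5). The lengths are those of GENCODE M21 gene models, which may differ from the models used for counting, and the order depends on them. Every neighbouring pair in this order overlapped in its range over libraries except Calr with Atf4 and Herpud1 with Manf. These ranges were taken gene by gene, so an overlap does not describe the order of genes within a single library. The spread over libraries was largest for Sdf2l1 (coefficient of variation 34.1%) and Creld2 (28.3%). It was smallest for Canx (5.69%), Ddit3 (5.96%) and Atf4 (6.17%).

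The transcription factors of the PERK branch overlapped across the 3 groups. Atf4 (chromosome 15, 80255184 to 80257541), the factor translated when PERK is active, had 97.1 and 101 CPM in treated PS19, 90.1 and 102 CPM in PS19, and 101 and 88.4 CPM in control. Ddit3 (chromosome 10, 127290774 to 127296288), which encodes the death-promoting factor CHOP, had 17.6 and 19.6 CPM in treated PS19, 19.0 and 20.7 CPM in PS19, and 19.5 and 18.0 CPM in control. For both genes the libraries of every group overlapped those of the others. Ddit3 shares 81 exonic bases with genes on the opposite strand, among them Mars, so a few of its reads could be counted elsewhere. It also shares 3.27% of its 50-mers with a second gene model of the same name, and the counts are given per symbol.

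Xbp1, the target of IRE1 splicing (chromosome 11, 5520659 to 5525893), differed widely between the libraries of treated PS19 and of PS19. It had 83.8 and 133 CPM in treated PS19, 90.7 and 116 CPM in PS19, and 80.0 and 96.3 CPM in control. The second library was the higher one in each group, and the 3 groups overlapped.

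Herpud1, a membrane protein that serves ER-associated degradation (chromosome 8, 94386438 to 94395377), had 51.1 and 58.4 CPM in treated PS19, 48.4 and 55.8 CPM in PS19, and 44.8 and 41.9 CPM in control. Control 2 and the library labelled control 1, whose Prnp level goes against its label, lay below all 4 PS19 libraries, treated or not. Calr encodes calreticulin, the soluble lectin chaperone that also stores calcium (chromosome 8, 84841850 to 84846934). It had 351 and 402 CPM in treated PS19, 353 and 400 CPM in PS19, and 317 and 335 CPM in control. Canx encodes calnexin, its membrane-bound relative (chromosome 11, 50293961 to 50325673), and had 702 and 732 CPM in treated PS19, 731 and 757 CPM in PS19, and 654 and 667 CPM in control. For these 2 chaperones, too, control 2 and the library labelled control 1 were the lowest of the 6, and the treated PS19 and PS19 libraries overlapped.

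Pdia4, a protein disulfide isomerase (chromosome 6, 47796141 to 47813430), had 65.4 and 93.3 CPM in treated PS19, 61.8 and 81.2 CPM in PS19, and 61.0 and 59.6 CPM in control. Manf, a secreted and ER-resident protein with neurotrophic activity that binds BiP (chromosome 9, 106838312 to 106891979), had 36.9 and 54.7 CPM in treated PS19, 39.1 and 52.0 CPM in PS19, and 36.0 and 38.6 CPM in control. In both genes treated PS19 2 and PS19 2 stood well above the other 4 libraries, which lay close together. The Manf gene model shares 312 exonic bases with genes on the opposite strand, and whether counting used the strand is not given in the sources used here.

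Sdf2l1, an ER protein that assists BiP (chromosome 16, 17130138 to 17132383), had 9.18 and 17.9 CPM in treated PS19, 9.54 and 14.7 CPM in PS19, and 7.66 and 10 CPM in control. Creld2, an ER-resident calcium-binding protein induced by ER stress (chromosome 15, 88819646 to 88826683), had 8.83 and 18.5 CPM in treated PS19, 13 and 12.6 CPM in PS19, and 9.24 and 11.6 CPM in control. Treated PS19 1 had the lowest Creld2 level of all libraries and treated PS19 2 the highest. These were the least counted genes of the 10, with 194 to 479 counts per library for Sdf2l1 and 220 to 495 for Creld2.

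**Figure D1:**
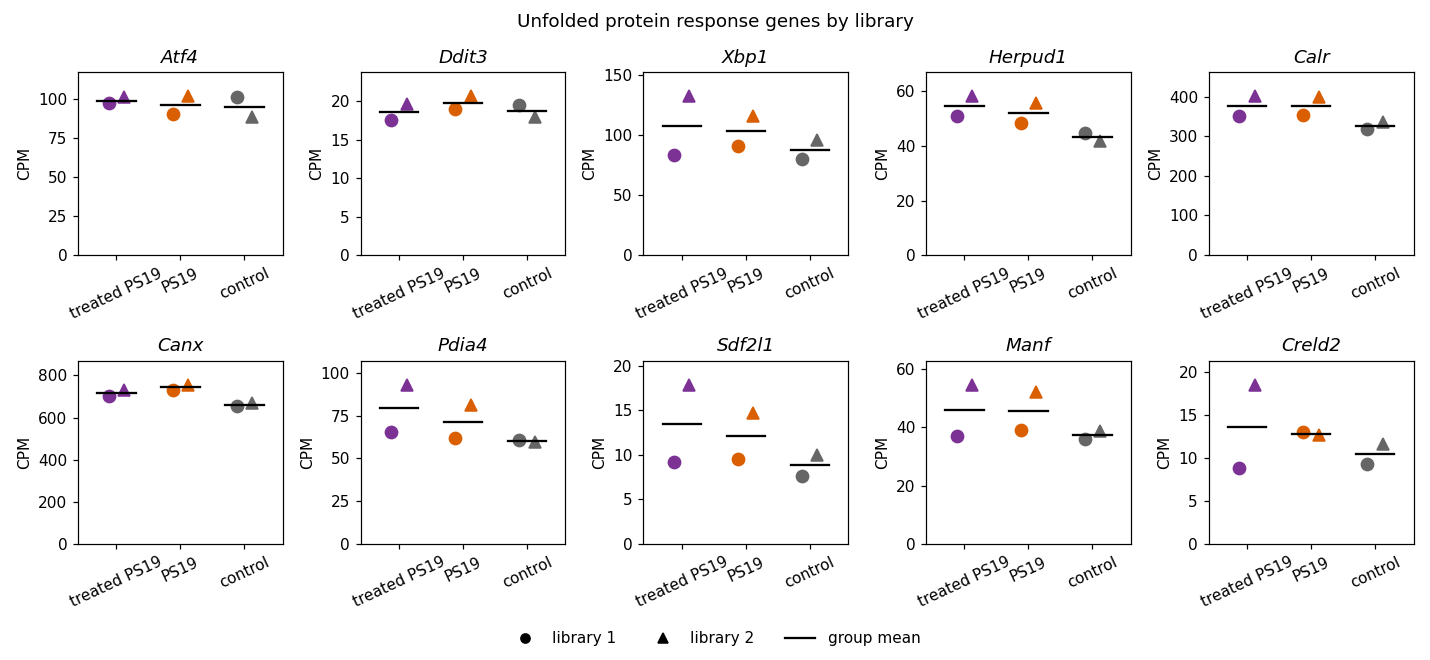
Level of each of the 10 genes in CPM (vertical axes, each from 0) in the treated PS19, PS19 and control libraries; circles are library 1, triangles library 2 and bars the group mean. In treated PS19, library 2 lies above library 1 for all 10 genes, as at 18.5 against 8.83 CPM for Creld2.

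PS19 was set against control to ask what the tau transgene changes. All 10 genes had positive log2 fold changes, with a median of 0.23, against -0.003 over all genes tested. The differences were 0.42 ± 0.33 (SE) for Sdf2l1, 0.30 ± 0.31 for Creld2, 0.28 ± 0.19 for Manf, 0.26 ± 0.11 for Herpud1, 0.24 ± 0.17 for Pdia4 and 0.23 ± 0.20 for Xbp1. They were 0.20 ± 0.09 for Calr, 0.17 ± 0.07 for Canx, 0.08 ± 0.13 for Ddit3 and 0.02 ± 0.10 for Atf4. In means, Canx stood at 744 ± 18.5 CPM in PS19 and 661 ± 9.24 CPM in control (SD, n = 2 libraries each), and Herpud1 at 52.1 ± 5.22 CPM in PS19 and 43.3 ± 2.02 CPM in control.

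No member passed in PS19 against control. The edgeR quasi-likelihood test, with Benjamini-Hochberg adjustment over all genes and a threshold of 0.05, called 0 of the 10 members, as it called 0% of all genes. At an unadjusted p under 0.05 it had 2 members, Canx and Herpud1, where 9.95% of all genes tested had such a p, and the smallest adjusted p among the 10 was that of Canx in edgeR (0.454). DESeq2 called 0 members (3 at an unadjusted p under 0.05, with 3 adjusted p-values not given), and limma-voom called 0 (1 at an unadjusted p under 0.05). The libraries did not overlap and were higher in PS19 for 6 members, Herpud1, Calr, Canx, Pdia4, Manf and Creld2, and lower for 0. Of all genes tested, 20.3% were higher without overlap and 21.3% lower.

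The positive differences rested in part on PS19 2. Without it the median of the 10 genes was 0.09 and 9 were positive, and without both PS19 2 and the library labelled control 1 the median was 0.07 and 8 were positive. Without the library labelled control 1 alone all 10 were positive, with a median of 0.16. Canx moved least, between 0.15 and 0.20 when each library was left out in turn, and Sdf2l1 most, between 0.11 and 0.73.

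**Figure D2:**
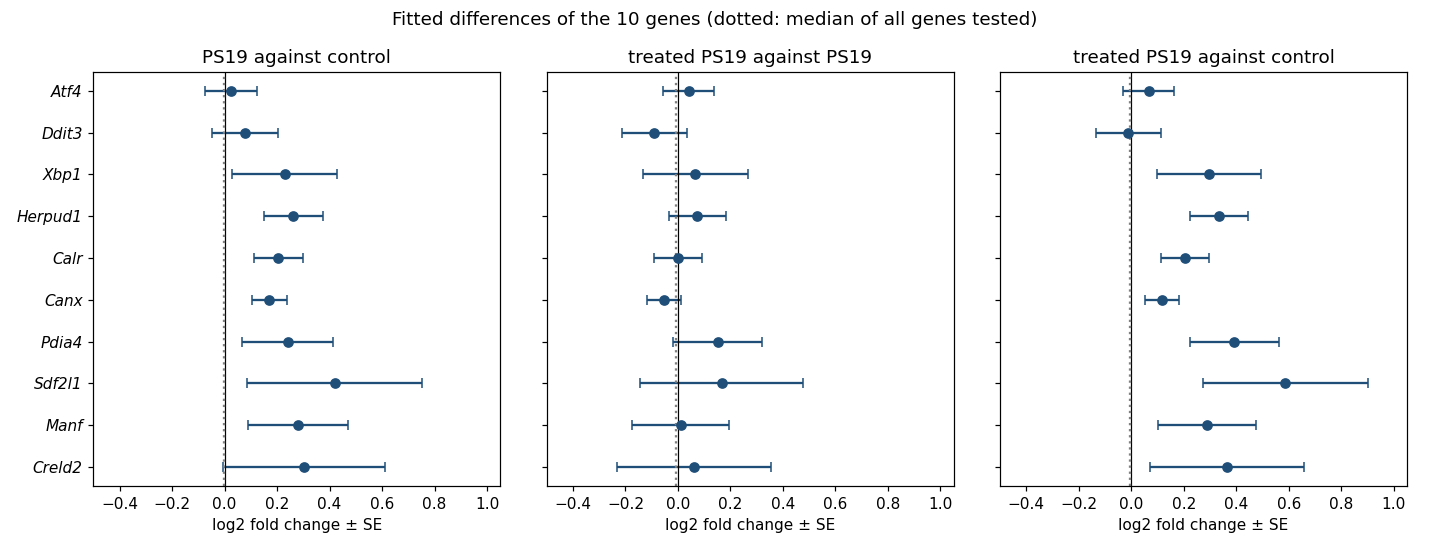
Fitted log2 fold change (horizontal axis) with its standard error for the 10 genes (vertical axis) in the 3 comparisons; the dotted line is the median of all genes tested. The 10 genes are positive in PS19 against control, from 0.02 for Atf4 to 0.42 for Sdf2l1, and lie on both sides of 0 in treated PS19 against PS19.

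Treated PS19 was set against PS19 to ask what WDR5-0103 changes in transgenic mice. The 10 genes had a median log2 fold change of 0.05, against -0.006 over all genes tested, with 7 positive and 3 negative. The differences were 0.17 ± 0.31 (SE) for Sdf2l1, 0.15 ± 0.17 for Pdia4, 0.07 ± 0.11 for Herpud1, 0.07 ± 0.20 for Xbp1, 0.06 ± 0.29 for Creld2, 0.04 ± 0.10 for Atf4 and 0.01 ± 0.19 for Manf. They were -0.05 ± 0.07 for Canx and -0.09 ± 0.13 for Ddit3, and Calr averaged 376 ± 36.1 CPM in treated PS19 and 376 ± 33.8 CPM in PS19 (SD, n = 2 libraries each). The edgeR test called 0 members, against 3.76% of all genes, and its smallest adjusted p was 0.836. At an unadjusted p under 0.05 it had 0 members, against 12% of all genes. In a fit of the 14739 protein-coding genes alone, a class that holds all 10 members, edgeR called 45 genes and 0 members. DESeq2 and limma-voom called 0 members each, also with 0 at an unadjusted p under 0.05. The libraries overlapped for every member, while 21.2% of all genes tested were higher without overlap and 20.1% lower. The sign of the median depended on single libraries. It was -0.14 with 1 gene positive without treated PS19 2, and -0.08 with 1 gene positive without PS19 1.

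Treated PS19 against control shares its control libraries with the first comparison and its treated libraries with the second, so its values are not independent of theirs. The log2 fold changes were 0.59 ± 0.31 (SE) for Sdf2l1, 0.39 ± 0.17 for Pdia4, 0.36 ± 0.29 for Creld2, 0.33 ± 0.11 for Herpud1, 0.30 ± 0.20 for Xbp1 and 0.29 ± 0.19 for Manf. They were 0.20 ± 0.09 for Calr, 0.12 ± 0.07 for Canx, 0.07 ± 0.10 for Atf4 and -0.01 ± 0.12 for Ddit3. The median was 0.29, against -0.007 over all genes tested. Pdia4 averaged 79.3 ± 19.8 CPM in treated PS19 and 60.3 ± 0.956 CPM in control (SD, n = 2 libraries each). The edgeR test called 0 members, against 4.22% of all genes, with Herpud1 and Pdia4 at an unadjusted p under 0.05, a level that 16.3% of all genes reached. The smallest adjusted p in edgeR was 0.157, for Herpud1. In a fit of the 14739 protein-coding genes alone, edgeR called 40 genes and 0 members. DESeq2 called 0 members (4 at an unadjusted p under 0.05) and limma-voom 0 (2 at that level). Herpud1, Calr, Canx and Pdia4 were higher without overlap of libraries and 0 members lower, where 23% of all genes were higher without overlap and 23.3% lower. Without treated PS19 2 the median was 0.05 with 6 genes positive, and without treated PS19 1 it was 0.50 with all 10 positive.

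The 2 treated PS19 libraries lay further apart, in the median of the 10 genes, than any pair of groups. Treated PS19 2 stood above treated PS19 1 for all 10 genes, with a median log2 difference of 0.35, against 0.002 over all genes tested. The gap was 1.06 for Creld2, 0.95 for Sdf2l1, 0.67 for Xbp1, 0.57 for Manf and 0.51 for Pdia4, and 0.20 for Calr, 0.19 for Herpud1, 0.16 for Ddit3, 0.06 for Canx and 0.05 for Atf4. PS19 2 stood above PS19 1 for 9 of the 10 (median 0.19), by 0.62 for Sdf2l1, 0.41 for Manf, 0.39 for Pdia4 and 0.36 for Xbp1. Creld2 was the exception there, at -0.05. Between control 2 and the library labelled control 1 the median was 0.05, with 6 of the 10 higher in control 2. Sdf2l1, Manf, Pdia4 and Xbp1 thus had the largest positive gaps in PS19, and together with Creld2 in treated PS19. As single libraries, treated PS19 2 was the highest of the 6 for 7 genes and PS19 2 for the other 3.

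**Figure D3:**
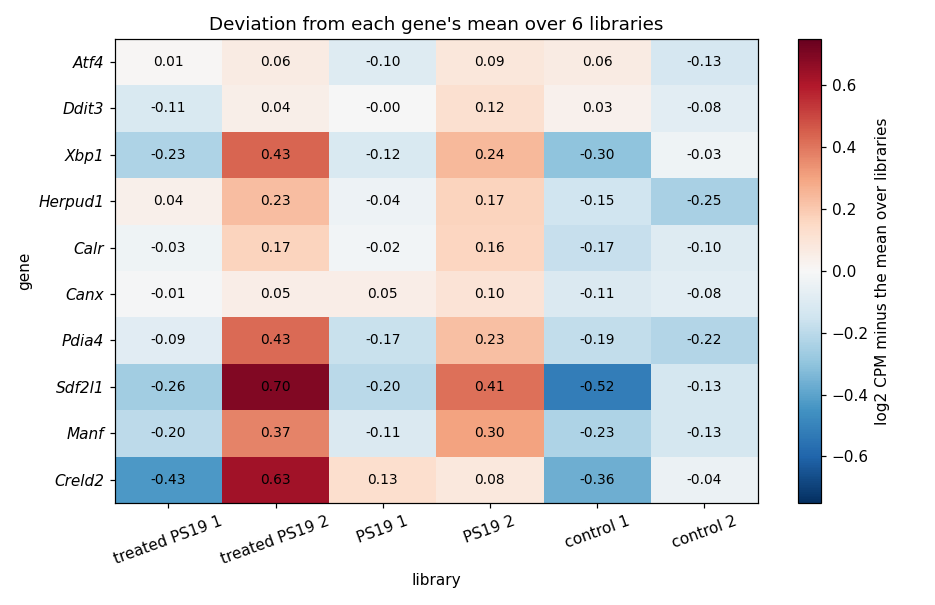
Deviation of log2 CPM from each gene's mean over the 6 libraries (colour and printed value), with genes as rows and libraries as columns. Treated PS19 2 and PS19 2 are positive for every gene, up to 0.70 for Sdf2l1 in treated PS19 2, and the library labelled control 1 is lowest for 5 genes.

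Other lists moved between the same libraries. All 12 immediate early genes, which neurons transcribe within minutes of activity, were higher in treated PS19 2 than in treated PS19 1 (median log2 difference 1.67) and in PS19 2 than in PS19 1 (0.86). Their summed level was 358 and 1110 CPM in treated PS19, 427 and 814 CPM in PS19, and 650 and 517 CPM in control, with none of the 12 at 0 counts. In control, 2 of the 12 were higher in control 2. The oligodendrocyte markers summed to 2810 and 3110 CPM in treated PS19, 2640 and 5900 CPM in PS19, and 3160 and 1580 CPM in control, with none at 0 counts. Of these 12, 11 were higher in treated PS19 2 than in treated PS19 1 (median log2 difference 0.13), 12 in PS19 2 than in PS19 1 (1.13), and 0 in control 2 than in the library labelled control 1 (-0.97). Of 15 glucocorticoid-induced genes, 14 were higher in PS19 2 than in PS19 1 and 6 in treated PS19 2 than in treated PS19 1. Their sums were 593 and 522 CPM in treated PS19, 511 and 831 CPM in PS19, and 450 and 430 CPM in control. The part of these lists in the levels of the 10 genes was not tested.

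Other genes of the response were read in 4 lists holding 58 genes, of which 57 were tested. Of the 57, edgeR called 0 in each comparison. In PS19 against control, 37 of 57 were positive (median 0.07) and 4 had an unadjusted p under 0.05. In treated PS19 against PS19, 31 were positive (median 0.02) and 4 had such a p, and in treated PS19 against control 38 were positive (median 0.08) and 8 had one. The shares with such a p were 7.02%, 7.02% and 14% of the 57 genes in that order, against 9.95%, 12% and 16.3% of all genes tested. Positive were 64.9%, 54.4% and 66.7% of the 57, against 49.4%, 48.7% and 48.8% of all genes. DESeq2 called Dnajb9 in PS19 against control and no other of the 57 in any comparison, and limma-voom called 0.

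Among the 18 ER chaperones and folding enzymes, Hspa5, which encodes BiP, was high in the same libraries as the members. It had 344 and 573 CPM in treated PS19, 353 and 448 CPM in PS19, and 342 and 338 CPM in control, with log2 fold changes of 0.24 ± 0.20 (SE) for PS19 against control, 0.19 ± 0.20 for treated PS19 against PS19 and 0.43 ± 0.20 for treated PS19 against control. Treated PS19 2 and PS19 2 stood above the other 4 libraries, and its adjusted p in edgeR ran from 0.322 to 0.814. It passed in treated PS19 against control without treated PS19 1, where treated PS19 2 stands alone for its group (log2 fold change 0.76, edgeR adjusted p = 0.0221), as did the disulfide isomerase gene Pdia6 (0.61, edgeR adjusted p = 0.0226). Dnajb9, the J-domain partner of BiP also called ERdj4, had another pattern.

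Dnajb9 stood at 36.2 and 37.3 CPM in treated PS19, 37.9 and 40.2 CPM in PS19, and 26.9 and 29.6 CPM in control. Control 2 and the library labelled control 1, whose Prnp level was that of the PS19 libraries, were the lowest of the 6, with no large gap inside a group. Its log2 fold change was 0.47 ± 0.10 (SE) in PS19 against control, with an edgeR adjusted p of 0.441 over 20694 genes. The DESeq2 adjusted p there was 0.0495, over only the 7053 genes to which DESeq2 gave one. In treated PS19 against control its log2 fold change was 0.38 ± 0.10 (edgeR adjusted p = 0.0799). Dnajb9 shares 5.5% of its 50-mers with the near-copy Gm6568, so its level is uncertain to that extent. Pdia5, a disulfide isomerase, had the second smallest p of the list in both comparisons with control and stood lower, at 1.55 and 2.01 CPM in treated PS19, 1.60 and 2.24 CPM in PS19, and 2.80 and 3.25 CPM in control. Its edgeR adjusted p was 0.497 for PS19 against control and 0.207 for treated PS19 against control. In treated PS19 against PS19 the smallest p in this list belonged to Creld1 (0.22) and Sdf2 (0.20), paralogs of the Creld2 and Sdf2l1 genes, given as log2 fold changes with edgeR adjusted p of 0.415 and 0.519.

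None of the 7 sensors and transducers passed the test. Ern1, which encodes IRE1, had 15.8 and 14.1 CPM in treated PS19, 14.5 and 15.3 CPM in PS19, and 14.5 and 15.9 CPM in control. Eif2ak3, which encodes PERK, had 33.9 and 40.1 CPM in treated PS19, 33.5 and 38.8 CPM in PS19, and 34.4 and 35.0 CPM in control, so that its second libraries were the higher ones as well. Atf6 had 197 and 208 CPM in treated PS19, 192 and 198 CPM in PS19, and 181 and 188 CPM in control, with the libraries labelled control lowest and without overlap. Its log2 fold change was 0.08 ± 0.075 (SE) in PS19 against control and 0.14 ± 0.07 in treated PS19 against control (edgeR adjusted p = 0.712 and 0.408). The smallest p of the 7 genes in treated PS19 against PS19 was that of Eif2s1, the translation factor that PERK phosphorylates (log2 fold change -0.36 ± 0.10, edgeR adjusted p = 0.118). Eif2s1 had 43.6 and 43.0 CPM in treated PS19 and 52.4 and 59.4 CPM in PS19, and shares 5.76% of its 50-mers with near-copies. Beside it stood Atf6b, a relative of Atf6 (0.11). In PS19 against control Eif2s1 (0.20) was followed by Mbtps2, a protease that cuts ATF6 (0.16), which also led in treated PS19 against control (0.19) and shares 28.9% of its 50-mers with other genes.

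Of the 15 genes for ER-associated degradation and the translocon, 11 were positive in PS19 against control, 9 in treated PS19 against PS19 and 10 in treated PS19 against control. Sel1l, the adaptor of the main ubiquitin ligase of this route, had 292 and 330 CPM in treated PS19 and 261 and 274 CPM in PS19 (log2 fold change 0.22 ± 0.08, edgeR adjusted p = 0.305). Against control its log2 fold change was 0.17 in treated PS19. Derl3, a channel component, had few counts (13 to 49 per library), with 1.43 and 1.49 CPM in treated PS19, 0.743 and 0.745 CPM in PS19, and 1.38 and 1.61 CPM in control. Both PS19 libraries were the lowest of the 6 (edgeR adjusted p = 0.459 for PS19 against control and 0.326 for treated PS19 against PS19). Ube2j1, a ubiquitin-conjugating enzyme of the ER membrane, had log2 fold changes of 0.15 in PS19 against control and 0.21 in treated PS19 against control (edgeR adjusted p = 0.519 and 0.195).

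Of the 17 tested ATF4 and CHOP targets, 9 were positive in PS19 against control (median 0.02) and 10 in treated PS19 against control (median 0.06). In treated PS19 against PS19, 5 were positive and 12 negative (median -0.05), with 0 higher and 4 lower without overlap of libraries. Psat1, an enzyme of serine synthesis, had 95.7 and 101 CPM in treated PS19, 108 and 124 CPM in PS19, and 106 and 87.4 CPM in control (edgeR adjusted p = 0.492 for PS19 against control and 0.466 for treated PS19 against PS19). Phgdh, the first enzyme of that route, had a log2 fold change of -0.42 in treated PS19 against PS19, and 47.8% of its 50-mers occur in near-copies. The stress factor Atf5 had 6.58 and 6.34 CPM in treated PS19 and 5.75 and 7.74 CPM in PS19. Control 2 had 6.74 CPM of it, and the library labelled control 1 had 13.6 CPM. Its log2 fold change was -0.62 in PS19 against control and -0.65 in treated PS19 against control (edgeR adjusted p = 0.525 and 0.311). Without control 2, where the library labelled control 1 stands alone for its group, the second of these was -1.07. Atf3, which is also an activity-induced gene, had few counts, from 2 in PS19 1 to 37 in the library labelled control 1. It had 0.263 and 0.373 CPM in treated PS19, 0.0782 and 0.802 CPM in PS19, and 1.46 and 0.627 CPM in control. Its log2 fold change was -1.73 ± 0.71 for treated PS19 against control (edgeR adjusted p = 0.261).

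**Figure D4:**
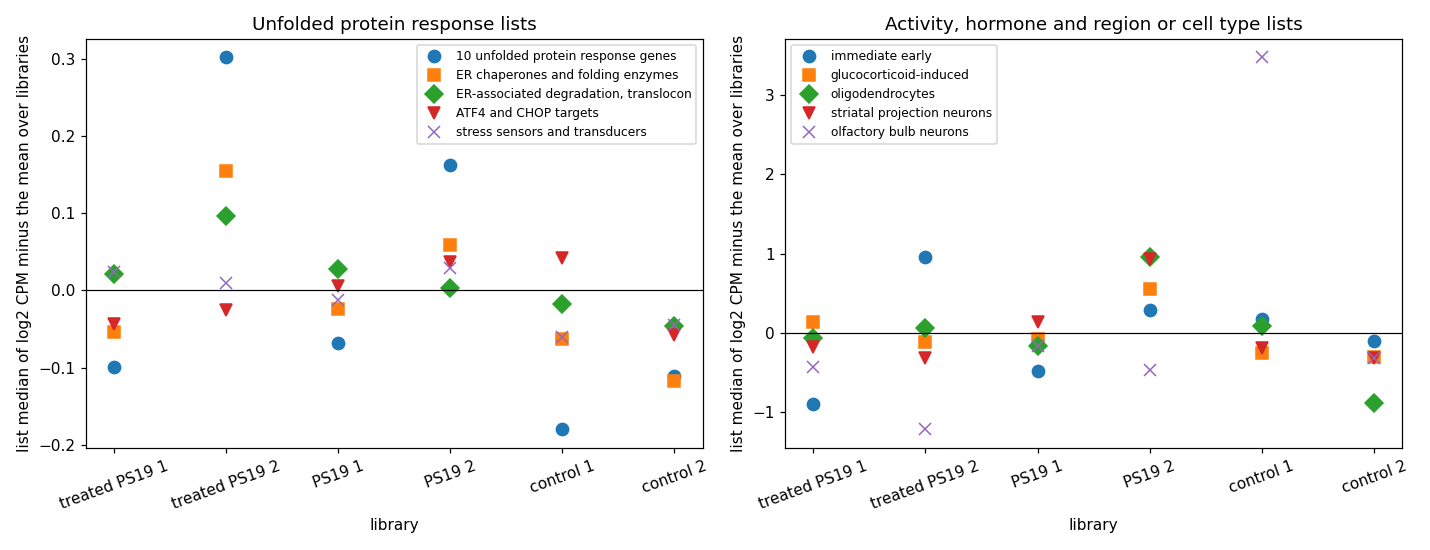
Median over each list of log2 CPM minus the mean over libraries (vertical axes, on different scales), by library (horizontal axes). Left, the 10 genes and the 4 pathway lists; treated PS19 2 has the highest median of the 10 genes (0.30) and of the chaperone list (0.155), while the ATF4 and CHOP targets lie between -0.06 and 0.04. Right, activity, hormone, cell type and region lists, with treated PS19 2 highest for immediate early genes (0.96) and PS19 2 for oligodendrocyte markers (0.96).

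The lists differed in how they followed treated PS19 2. Of the chaperone list 15 of 18 genes were higher in treated PS19 2 than in treated PS19 1 (median log2 difference 0.15), and of the degradation list 12 of 15 (0.06). Of the ATF4 and CHOP targets 8 of 17 were higher there, and of the sensors 3 of 7, beside 50.4% of all genes tested. In PS19 the counts were 14 of 18 chaperones, 7 of 15 degradation genes, 10 of 17 ATF4 and CHOP targets and 6 of 7 sensors higher in PS19 2, beside 49.7% of all genes. An ERSE was present in the promoters of 7 of the 52 genes of these lists that matched a RefSeq promoter, and in 3 of the 9 members. For members with an ERSE, the log2 gap between the treated PS19 libraries ran from 0.06 for Canx to 1.06 for Creld2. For members whose matched promoter held no ERSE it ran from 0.05 for Atf4 to 0.955 for Sdf2l1. A link between the element and these gaps was not tested.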

How the data were processed

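RNA was measured in 6 libraries, 2 in each of 3 groups, which the labels call biological duplicates. Per the labels' protocols, libraries were strand-specific and depleted of ribosomal RNA, reads were trimmed with Cutadapt, and TopHat2 aligned them to RefSeq mRNAs. The submitters' processing notes also name SAMtools, featureCounts, edgeR and mm10. The deposited values are whole read counts per gene symbol, not normalized. The sources used here give no tool versions, no strand setting and no rule for reads that align more than once.

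Symbols common to all tables were filtered with filterByExpr (minimum count 10), which kept 20694 of 53640, and were scaled by TMM. One model of all 6 libraries, with 3 residual degrees of freedom, was fitted across all genes in edgeR 4.0.16 (R 4.3.3), and its quasi-likelihood test (two-sided) compared the groups. The test was also run on simulated counts. Their spread was set below the common estimate from these libraries, so that run does not vouch for the test here. CPM are scaled by TMM. Log2 CPM for deviations and library differences used a prior count of 2. Alternatives used DESeq2 1.42.0, limma 3.58.1 and other settings. P-values set a difference between groups against the spread estimated from these libraries. Gene models came from GENCODE M21 (GRCm38, the assembly of mm10). The members and lists were chosen with earlier results of these data known. Beside the 10 members, named genes are the 2 of smallest p per list and comparison, with Hspa5, Ern1, Eif2ak3 and Atf6. Pdia6 was chosen after its values were seen.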

Additional observations from a re-analysis of the deposited data

How the results depend on the processing

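Under the 16 alternatives run, 0 of the 10 members were called in any comparison, and the smallest adjusted p of a member was 0.0634 (Creld2, treated PS19 against control, without treated PS19 1). The titles number the libraries 1 and 2 in every group. The headers of the deposited counts number some libraries otherwise, and the titles were used here. Libraries with the same title number did not deviate together over all genes. The correlation of deviations was 0.01 for PS19 against control, 0.07 for treated PS19 against PS19 and -0.01 for treated PS19 against control. This does not exclude a pairing that touches only some genes. With the title number as a replicate block the member medians were 0.23, 0.02 and 0.27 in the same order. Manf was -0.0032 in the second, against 0.01 without the block. In PS19 against control the block gave a smaller standard error for every member except Atf4 and Ddit3. The standard error was 0.107 for Xbp1 (0.201 without the block), 0.180 for Sdf2l1 (0.333 without it) and 0.125 for Manf (0.190 without it). For Atf4 it was 0.102 (0.099 without the block) and for Ddit3 0.126 in both fits. With 2 libraries a group, leaving one out assumes that the lone library varies like the other groups. Sdf2l1 and Creld2, with the fewest counts, had the largest standard errors of the members.

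Leaving out each library in turn moved the member median between 0.09 and 0.33 for PS19 against control, between -0.14 and 0.23 for treated PS19 against PS19, and between 0.052 and 0.498 for treated PS19 against control. Pathway genes called ranged from 0 to 2 in the last and were 0 in the others. All genes called ranged from 0 to 98, from 354 to 840 and from 495 to 817 in the same order, against 0, 779 and 873 with all libraries. DESeq2 called 55 genes in PS19 against control, and leaving out the library labelled control 1 and PS19 2 together gave 130. In treated PS19 against PS19, a sex term left 166 and a fit of the 14739 protein-coding genes alone left 45. The protein-coding fit left 40 in treated PS19 against control. Only the control group held both sexes, so the sex term rested on control 2 and the library labelled control 1 alone. Any other difference between those libraries enters that term, and it cannot tell treatment from sex. DESeq2 called 1 pathway gene in PS19 against control (Dnajb9) and the sex term 1 in treated PS19 against control (Atf5). With the sex term, treated PS19 against control sets the treated libraries against the library labelled control 1 alone, the only male control.

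Some members changed sign, the cause of which was not tested. In PS19 against control, Atf4 ranged from -0.067 to 0.124 with a library left out and was -0.000069 among protein-coding genes alone, and without the library labelled control 1 and PS19 2 Xbp1 was -0.083 and Sdf2l1 -0.07. In treated PS19 against PS19, Calr turned positive with DESeq2 size factors (0.00062), no filter (0.016), DESeq2 (0.0005), limma-voom (0.00081), the sex term (0.079), protein-coding genes alone (0.0096) and both libraries left out (0.095). Limma-voom gave -0.0022 for Manf and -0.058 for Creld2, and the sex term -0.15 for Atf4 and -0.021 for Herpud1. With a library left out the ranges there were -0.05 to 0.14 for Atf4, -0.30 to 0.37 for Xbp1, -0.028 to 0.18 for Herpud1, -0.10 to 0.10 for Calr, -0.12 to 0.39 for Pdia4, -0.37 to 0.60 for Sdf2l1, -0.30 to 0.28 for Manf and -0.54 to 0.53 for Creld2. In treated PS19 against control, Ddit3 was 0.0058 with no filter and 0.051 with both libraries left out, and Atf4 -0.025 with the sex term. With a library left out the ranges were -0.021 to 0.167 for Atf4, -0.084 to 0.077 for Ddit3, -0.067 to 0.60 for Xbp1, -0.012 to 0.559 for Manf and -0.23 to 0.83 for Creld2.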
